A study of Caenorhabditis elegans with 4 samples.

Results

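These data describe the RNA that came down in an immunoprecipitation from untagged Caenorhabditis elegans. The affinity purification of FLAG-tagged MSTR-1 was run on worms of the N2 genotype, which lack the tag, so its peaks are the background of the assay. All 310 peaks that the authors listed for this library were taken, out of 2974 peaks in the series, of which the other 2664 were listed for the tagged protein MSTR-1. Each peak was named by the genes of assembly WBcel235 that share at least 1 bp with it on either strand.

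The series holds 4 eCLIP libraries from whole young adults, all kept at 25 °C on standard plates and irradiated with UV at 1.2 mJ/cm2. The N2 CLIP library came from N2, the laboratory wild-type strain, and is 1 library without a replicate. Another 2 libraries came from worms in which F22D6.2, the gene of MSTR-1, carries a 3xFLAG tag (allele on49), and here they give peak positions and a few values for comparison. The library that N2 CLIP was set against is 1 size-matched input, whose listed genotype is the tagged one, so the effect of the purification and any difference in RNA level between N2 and tagged worms cannot be told apart. With 1 library on each side, no test between them was possible. The 95% intervals below of ratios of reads (exact conditional binomial) and of shares of reads (exact binomial) cover counting error only.

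In eCLIP, RNA is crosslinked to protein by UV light, the protein is pulled down, and the RNA that stays attached after washing is sequenced. A size-matched input is cut from the same size range of a gel without the pull-down. RNA can reach a pull-down without the tagged protein by sticking to beads or antibody, or with another protein that the antibody binds, and an untagged strain records what arrives in this way. Ribosomal RNA makes up most of the RNA of any cell and is a usual part of such background.

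N2 CLIP had 934439 reads inside its peaks, against 302551 reads of the input inside the same peaks. Ribosomal RNA made up nearly all of them, and of the remaining 294 peaks all but 2, which hold tRNA genes, had under 200 N2 CLIP reads. The median peak had 22 N2 CLIP reads and 15.5 input reads, and spanned 122 nt between its listed start and end. No listed peak had fewer than 11 N2 CLIP reads, and 142 of the 310 had 20 or fewer. The input had no read in 29 peaks and 1 to 3 reads in another 49.

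The fold of a peak is its N2 CLIP reads over its input reads after each library was divided by the authors' size factor. Every listed peak lies above 1 on this scale, from 1.002-fold to 2212-fold, with a median of 5.43-fold, so being above the input is a property of the list and not a result. At 245 of the 310 peaks the 95% interval lay above 1 by the authors' size factors, with no allowance for how the list was chosen. A fold of at least 4 was reached by 177 peaks, 57.1% of all, and this is the background against which the groups below are read. For peaks without an input read, the fold is a lower bound computed against 3 input reads. This bound leaves out the counting error of the N2 CLIP reads. The lower end of the 95% interval is lower still, as at hrg-11.3 (20.3, where the bound is 26.7). The direction depends on the scaling. When reads were scaled to the totals of the columns, the median fold was 0.61, with 110 peaks above 1 and 200 below and 6.13% at 4-fold or more. Scaled to the totals outside ribosomal RNA, the median was 3.06, with 240 peaks above 1 and 70 below and 41.9% at 4-fold or more. A change of scaling moves every peak by the same factor, so ratios between the folds of peaks and between group medians stay as they are. Counts of peaks past 4-fold do change, and those given for groups below hold for the authors' size factors only.

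**Figure D1:**
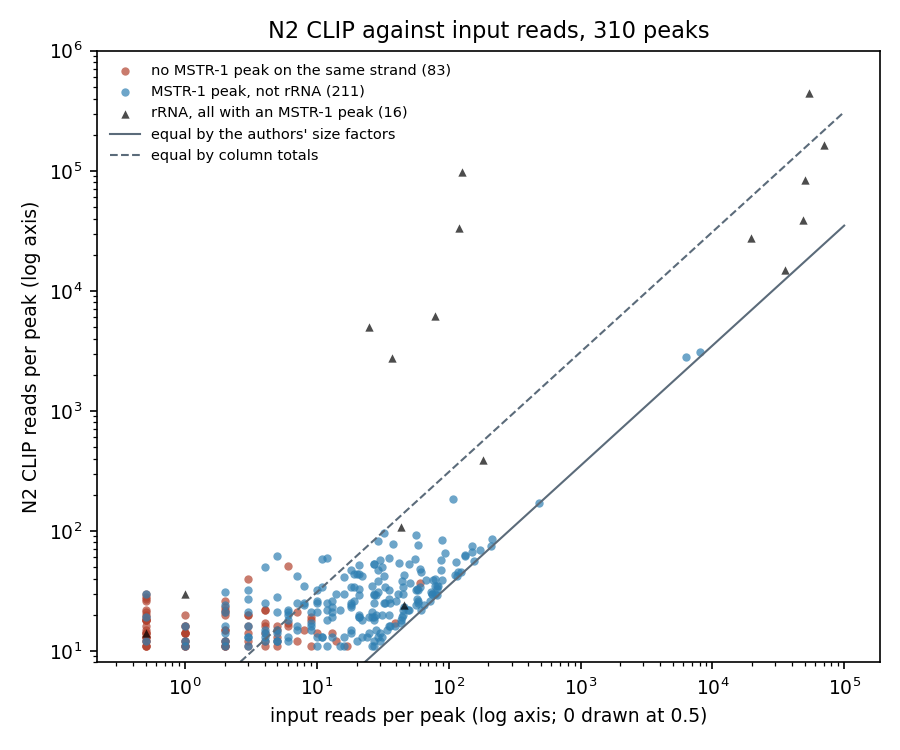
Reads of N2 CLIP (vertical, log axis) against reads of the input (horizontal, log axis, 0 drawn at 0.5) in each of the 310 peaks, with red points for the 83 peaks that no MSTR-1 peak overlaps, blue for other peaks and triangles for the 16 ribosomal RNA peaks. No point lies below the solid line of equal signal by the authors' size factors, most lie below the dashed line of equal column totals, and the red points crowd at few input reads.

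Ribosomal RNA dominated what untagged worms brought down. The 16 peaks over ribosomal RNA genes held 98.5% of the N2 CLIP reads (exact 95% interval 98.49 to 98.54), against 92.6% of the input reads (92.47 to 92.65), and the fold of the summed reads was 9.41. All 16 also had an MSTR-1 peak. The peak with most of these reads lay near one end of the 26S gene rrn-3.1 (chromosome I, 15068041 to 15068320, bases 3204 to 3483 of the 3509 in the gene). It held 447418 N2 CLIP reads and 54201 input reads, which is 47.9% of all N2 CLIP reads against 17.9% of all input reads, at 23.6-fold. The other peaks on the same listed strand of rrn-3.1 were lower, at 4.69-fold (bases 1150 to 1599) and 2.25-fold (bases 2553 to 2949), and a small peak on the opposite strand had 14 N2 CLIP reads and 0 input reads. Enrichment within this RNA was therefore uneven.

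The 18S rRNA has 2 annotated copies here, and both had peaks over nearly the same windows of the gene. In rrn-1.2 the peaks from bases 165 to 637, 739 to 1200 and 1331 to 1683 stood at 1.21-fold, 6.66-fold and 4.0-fold. In rrn-1.1 the peaks from bases 167 to 500, 749 to 1176 and 1332 to 1657 stood at 214-fold, 801-fold and 576-fold. The middle window was the highest in each copy. The copies differed in input reads far more than in N2 CLIP reads. N2 CLIP had 41343 reads on rrn-1.1 and 206006 on rrn-1.2, against 182 and 125374 in the input. In N2 CLIP 16.7% of the reads of both copies lay on rrn-1.1 (exact 95% interval 16.57 to 16.86), against 0.145% in the input (0.125 to 0.168). The annotated rRNA pseudogene rrn-3.56 had the highest fold of all peaks, with 97332 N2 CLIP reads and 126 input reads at 2212-fold (95% interval 1858 to 2656). How reads were placed among near-identical rRNA copies was not examined, so the folds of single copies are uncertain.

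Other ribosomal RNAs added few reads. The 5S genes rrn-4.3, rrn-4.4 and rrn-4.2, which lie in the tandem array on chromosome V, had 388, 108 and 24 N2 CLIP reads against 182, 43 and 46 input reads. Their folds were 6.11, 7.19 and 1.49, and the interval of rrn-4.2 (0.87 to 2.50) holds 1. The mitochondrial rRNA gene KEF34_r01 had 30 N2 CLIP reads and 1 input read, a ratio of 85.9 with an interval of 14.3 to 3505.

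**Figure D2:**
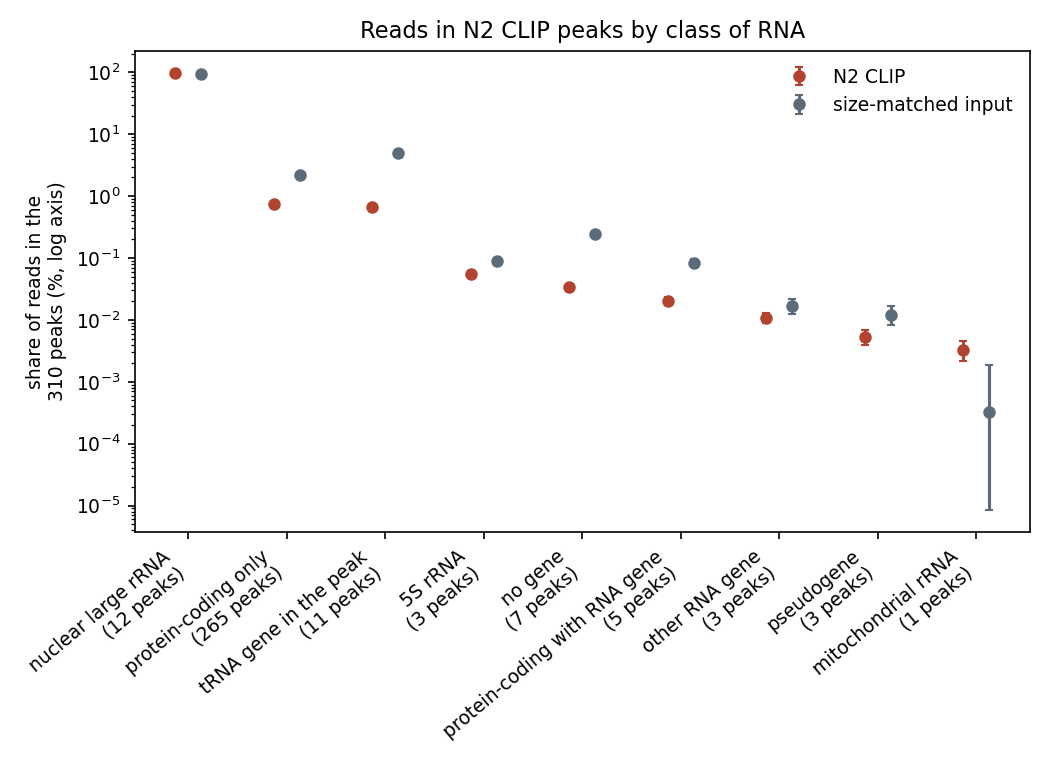
Share of the reads inside the 310 peaks (vertical, percent, log axis) by the class of RNA under the peak, for N2 CLIP (red, left of each pair) and the size-matched input (grey, right), with exact 95% intervals for counting error. Nuclear large rRNA holds 98.5% in N2 CLIP and 92.5% in the input, and peaks that hold a transfer RNA gene have a smaller share in N2 CLIP (0.67%) than in the input (4.88%).

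By the authors' size factors, transfer RNA was close to the input. As a share of the reads inside all peaks it was lower, at 0.67% in N2 CLIP against 4.88% in the input. The 11 peaks that hold a tRNA gene had 6242 N2 CLIP reads and 14750 input reads, a fold of 1.21 for the sums (95% interval 1.18 to 1.25). Of the 11, 2 reached 4-fold (18.2%, against 57.1% of all peaks). Peaks over C39D10.t2 and M02F4.t2 on chromosome X gave most of the reads at these 11 peaks. C39D10.t2 had 3108 N2 CLIP reads and 7993 input reads, at 1.11-fold. M02F4.t2 had 2815 N2 CLIP reads and 6260 input reads, at 1.29-fold. The 2 tRNA peaks past 4-fold are named after their values were seen. The peak over K01A12.3 that holds K01A12.t4 and K01A12.t5 had 50 N2 CLIP reads against 4 in the input (35.8-fold, interval 13.1 to 136). The peak that holds Y17G9A.t1 had 13 against 3 (12.4-fold, interval 3.41 to 67.9). At so few input reads every listed peak passes 4-fold by arithmetic. Peaks over other RNA genes were few. Y40A1A.5, annotated as ncRNA, had 59 N2 CLIP reads and 12 input reads (14.1-fold), and the snoRNA gene C14E2.12 had 31 and 29 (3.06-fold). Of 7 peaks over no gene, 3 lay between rRNA genes on chromosome I, and the one with most reads (chromosome X, 1994210 to 1994324) had 169 N2 CLIP reads and 483 input reads, at 1.002-fold.

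Messenger RNA made up most of the peaks but few of the reads. The 265 peaks over protein-coding genes alone had 7016 N2 CLIP reads and 6672 input reads, 0.75% of the N2 CLIP reads against 2.21% of the input reads. Their summed fold was 3.01 (interval 2.91 to 3.11), above that of the tRNA peaks. Where a peak overlapped 1 gene and no other it was assigned to it as an own peak, and 202 protein-coding genes had 249 such peaks. These genes were read through 17 lists of tissues and pathways, 16 of which had at least 1 own peak.

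**Figure D3:**
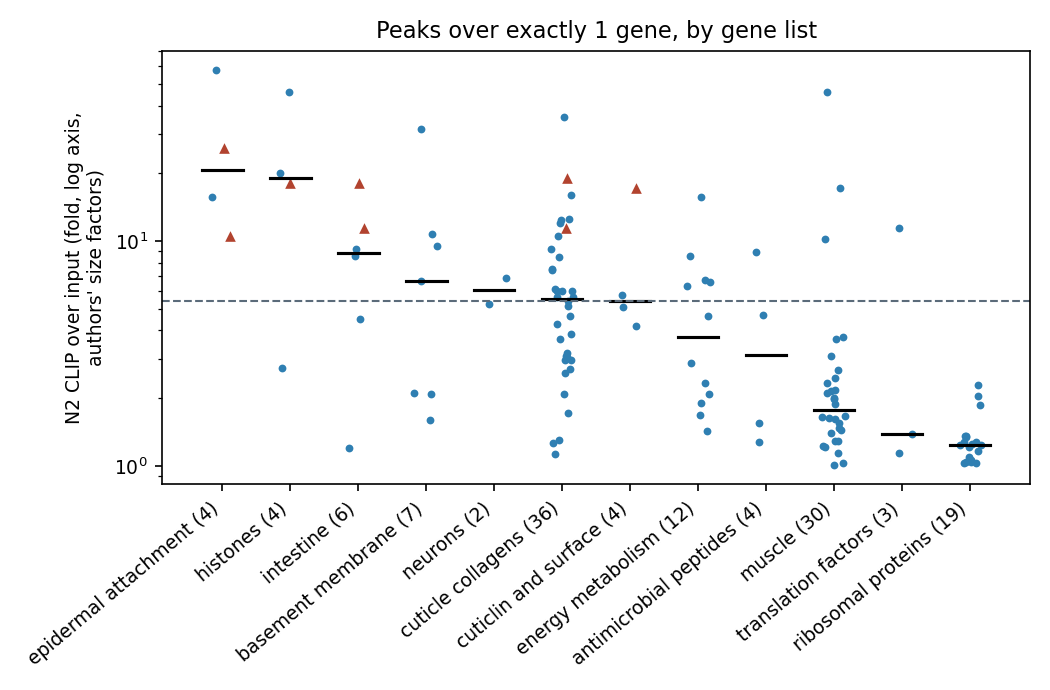
N2 CLIP over input (vertical, fold by the authors' size factors, log axis) of each own peak in lists with 2 or more, ordered by median; bars are medians, the dashed line is the median of all 310 peaks (5.43), and red triangles are lower bounds at 0 input reads. The 19 ribosomal protein peaks lie between 1.03 and 2.29, while the 36 cuticle collagen peaks spread from 1.13 to 35.5.

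Cuticle collagens, the structural proteins of the exoskeleton that the epidermis secretes, were the list with most own peaks. Of 180 collagen genes in the annotation 26 (14.4%) had an own N2 peak, against 1.01% of all protein-coding genes. This share was higher for basement membrane genes (25%), ribosomal proteins (22.9%), muscle (21.1%) and epidermal attachment genes (15.4%). Own peaks of collagen genes numbered 36 in all. They held 1246 N2 CLIP reads and 835 input reads, 8.95% of N2 CLIP reads outside rRNA (exact 95% interval 8.48 to 9.44) against 3.71% of those of the input (3.47 to 3.96). With tRNA peaks also left out of the total, the shares were 16.2% of the N2 CLIP reads and 10.8% of the input reads. Of the 36 peaks 22 reached 4-fold, 61.1% against the background of 57.1%, and their median of 5.52-fold was close to that of all peaks. The highest was a peak of dpy-5, a collagen needed for normal body length (chromosome I, 5432818 to 5432932), with 62 N2 CLIP reads and 5 input reads (35.5-fold, interval 14.4 to 113). Its other peak, at 5432496 to 5432636, had 44 N2 CLIP reads and 21 input reads (6.0-fold). A peak of sqt-3, another body-shape collagen, had 28 N2 CLIP reads and 5 input reads (16-fold), and that of dpy-8 had 20 and 0 (at least 19.1-fold). The collagens with most N2 CLIP reads were col-71 (172 against 77 input reads), col-3 (137 against 139), col-77 (121 against 78) and col-73 (112 against 68), at 6.40-fold, 2.82-fold, 4.44-fold and 4.72-fold. Peaks of col-98, col-42 and col-159 lay lowest, between 1.13-fold and 1.31-fold (named after their values were seen). Collagen genes resemble each other in sequence and the files do not show how reads were shared among them, which leaves the value of any single collagen gene uncertain.

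Muscle transcripts had many peaks at low folds. Genes of the contractile apparatus had 30 own peaks over 12 genes, with 952 N2 CLIP reads and 1499 input reads. Of the 30 peaks 3 reached 4-fold, 10% against 57.1%, and their median of 1.77-fold lay 1.62 below that of all peaks on the log2 scale. The gene with most N2 peaks was unc-54, the major myosin heavy chain of body wall muscle, with 12 peaks between 14856993 and 14861775 on chromosome I. They had 22 to 47 N2 CLIP reads and 18 to 87 input reads each, and folds from 1.15 to 3.66. Of the actin genes, act-1 had 100 N2 CLIP reads and 176 input reads in its 2 own peaks (1.63-fold), and act-4 had 103 and 221 in its 3 (1.33-fold). For the troponin I gene unc-27 the reads were 70 in N2 CLIP and 103 in the input (1.95-fold). The 3 peaks past 4-fold, named after their values were seen, were over unc-60 (an actin-severing cofilin; 16 reads against 1, 45.8-fold, interval 7.12 to 1921), mlc-2 (a myosin light chain; 42 against 7, 17.2-fold) and unc-89 (a giant muscle protein; 25 against 7, 10.2-fold). The other peak of mlc-2 had 22 N2 CLIP reads and 45 input reads, at 1.40-fold. A peak over act-3 and T04C12.17, outside the own peaks and also chosen for its value, had 31 N2 CLIP reads and 2 input reads (44.4-fold, interval 11.3 to 383). Actin genes have near-identical copies, so their single values are uncertain.

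Ribosomal protein transcripts had the lowest median fold of the lists with 2 or more own peaks. They had 19 own peaks over 19 genes, with 691 N2 CLIP reads and 1579 input reads, and a summed fold of 1.25 (interval 1.14 to 1.37). None of the 19 reached 4-fold, and the median of 1.24-fold was 2.13 below that of all peaks on the log2 scale. Large-subunit genes (13 peaks, median 1.25-fold) and small-subunit genes (5 peaks, median 1.17-fold) lay together. The transcript of rpl-27A had 63 N2 CLIP reads and 133 input reads (1.36-fold), rps-2 had 62 and 132 (1.35-fold), rpl-32 had 56 and 156 (1.03-fold) and rpl-23 had 48 and 60 (2.29-fold, the highest of the list). Of the translation factors, eef-2, which moves the ribosome along the message, had 85 N2 CLIP reads and 189 input reads (1.29-fold), while pab-2, a poly(A)-binding protein gene, had 12 and 3 (11.5-fold, interval 3.09 to 63.3).

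Among lists with 2 or more own peaks, histones (4 peaks, 3 past 4-fold) and epidermal attachment genes (4 of 4) had the highest medians, at 19.1-fold and 20.8-fold. Over all peaks 57.1% were past 4-fold. Each of the peaks past 4-fold in these 2 lists had 3 or fewer input reads. At that depth every listed peak passes 4-fold by arithmetic, so these counts follow from the low input. The core histone gene his-58 had 2 peaks with 19 and 16 N2 CLIP reads against 0 and 1 in the input (at least 18.1-fold, and 45.8-fold). Another core histone gene, his-48, had 21 N2 CLIP reads and 3 input reads (20.05-fold), while his-17 had 20 and 21 (2.73-fold). Histone genes have near-identical copies, so these values are uncertain too. The epidermal attachment list had 4 own peaks over 2 genes, all past 4-fold and all without an MSTR-1 peak. They were 3 peaks of vab-10, a spectraplakin gene that acts in the epidermis, with 20, 11 and 11 N2 CLIP reads against 1, 2 and 0 in the input, and a peak of pat-2, an alpha integrin gene that acts on the muscle side of the attachment, with 27 against 0 (at least 25.8-fold). Basement membrane genes had 7 own peaks, 4 of them past 4-fold, the same share as over all peaks (57.1%). Of these let-2, a type IV collagen gene, had 4 peaks with 88 N2 CLIP reads and 85 input reads in all (2.96-fold). The laminin gene lam-2 had 11 reads against 1 (31.5-fold, interval 4.58 to 1356), the type IV collagen gene emb-9 had 15 against 4 (10.7-fold), and ost-1, of the matrix protein SPARC, had 20 against 6 (9.55-fold).

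Secreted peptides and surface proteins were mixed. The epidermal peptide gene nlp-33 had 92 N2 CLIP reads and 56 input reads (4.70-fold, interval 3.34 to 6.68) and nlp-24 had 25 and 8 (8.95-fold), while both peaks of fipr-21 lay under 1.6-fold, with 26 N2 CLIP reads and 53 input reads together. The ground-like gene grl-16 had 42 N2 CLIP reads and 22 input reads (5.47-fold), the cuticlin gene cut-2 had 22 and 15 (4.20-fold), and mlt-11, needed for moulting, had 18 and 0 (at least 17.2-fold). Genes of energy metabolism had 12 own peaks, 6 of them past 4-fold (50%, against 57.1% of all peaks). The ATP synthase gene atp-1 had 60 N2 CLIP reads and 42 input reads (4.09-fold), the glycolytic gene gpd-2 had 44 and 20 (6.30-fold), and aldo-2 had 41 and 43 (2.73-fold). The respiratory chain gene cox-5A had 30 and 45 (1.91-fold). Of 461 intestinal genes 6 (1.30%) had an own peak, against 1.01% of all protein-coding genes. Of these 6 peaks 5 were past 4-fold (83.3%, against 57.1% of all peaks). They included the protease genes asp-1 (33 against 21 input reads, 4.50-fold) and cpr-4 (16 against 5, 9.16-fold), and the lectin gene clec-180 (19 against 0, at least 18.1-fold). Apart from asp-1, those past 4-fold had 5 or fewer input reads, where 4-fold is reached by arithmetic. The peak of clec-63 (18 against 43) stood at 1.20-fold.

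Other lists had 2 or fewer genes with an own peak, while of all protein-coding genes 202 of 19983 (1.01%) had one. None of the 6 vitellogenin genes, which encode yolk and are highly active in the adult intestine, had an N2 peak. Their reads outside the listed peaks were not analysed here. Of 63 neuronal genes 2 (3.17%) had an own peak, snb-1 (synaptobrevin; 22 N2 CLIP reads against 12 in the input, 5.25-fold) and egl-21 (a neuropeptide-processing carboxypeptidase; 12 against 5, 6.87-fold). Of 63 oocyte and germline genes 1 (1.59%) had one, mex-3 (16 against 4, 11.5-fold), as did 1 of 56 splicing genes (1.79%), snrp-200 (11 against 3, 10.5-fold), 1 of 108 sperm genes (0.93%), msp-50 (13 against 10, 3.72-fold), and 1 of 86 chaperone genes (1.16%), pdi-2 (12 against 30, 1.15-fold). The gene of MSTR-1 itself (mstr-1, chromosome I, 7079868 to 7081520) had no N2 peak.

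Outside the lists, F41F3.3 on chromosome V had the most N2 CLIP reads after unc-54, with 261 against 165 in the input over 2 peaks (4.53-fold, interval 3.71 to 5.54). F53F1.4 had 109 N2 CLIP reads and 73 input reads (4.28-fold) and ram-2 had 109 and 51 (6.12-fold). The 114 own peaks of protein-coding genes in no list had a median of 8.72-fold, and 85 of them, 74.6%, reached 4-fold against the background of 57.1%. They had a median of 5 input reads, against 20.5 for collagens, 52.5 for muscle and 73 for ribosomal proteins.

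The number of input reads moved with these differences, and its part in them was not tested beyond what follows. With at least 11 N2 CLIP reads in every listed peak, any peak with 7 or fewer input reads is at least 4-fold by arithmetic, and this holds for 118 of the 177 peaks past that fold. The lists were therefore also read at the peaks with over 20 input reads, a limit set after the data were seen. Of 124 such peaks outside rRNA 15 reached 4-fold (12.1%), with a median of 1.64-fold. Collagens had 5 of 18 (median 3.06-fold), muscle had none of 23 (median 1.62-fold) and ribosomal proteins had none of 19 (median 1.24-fold). The collagens past 4-fold there were dpy-5, dpy-13, col-71, col-73 and col-77. Input reads still differed within this class, with medians of 31.5 for collagens, 61 for muscle and 73 for ribosomal proteins, so the lists were not matched in depth.

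Peaks of the same gene could differ in fold. Of 208 genes outside rRNA with an own peak 179 had 1, 29 had 2 or more and 8 had 3 or more. Among the 29, the highest peak fold was 1.91 times the lowest in the median gene. This ratio is at least 1 by construction and also takes in counting error, which was not separated from it. In let-2 the peak from 16386027 to 16386137 had 44 N2 CLIP reads and 19 input reads (6.63-fold, interval 3.79 to 12), while the other 3 lay between 1.60-fold and 2.10-fold. In Y47D7A.15 the peaks had 27, 23 and 21 N2 CLIP reads against 35, 13 and 6 in the input. Their folds were 2.21 (interval 1.29 to 3.76), 5.07 (2.46 to 10.9) and 10.02 (3.91 to 30.4). Only the intervals of the first and last peak do not overlap. The middle peak of col-71 had 95 N2 CLIP reads and 32 input reads (8.50-fold) and the one beside it had 30 and 27 (3.18-fold). No gene had own peaks on both listed strands.

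**Figure D4:**
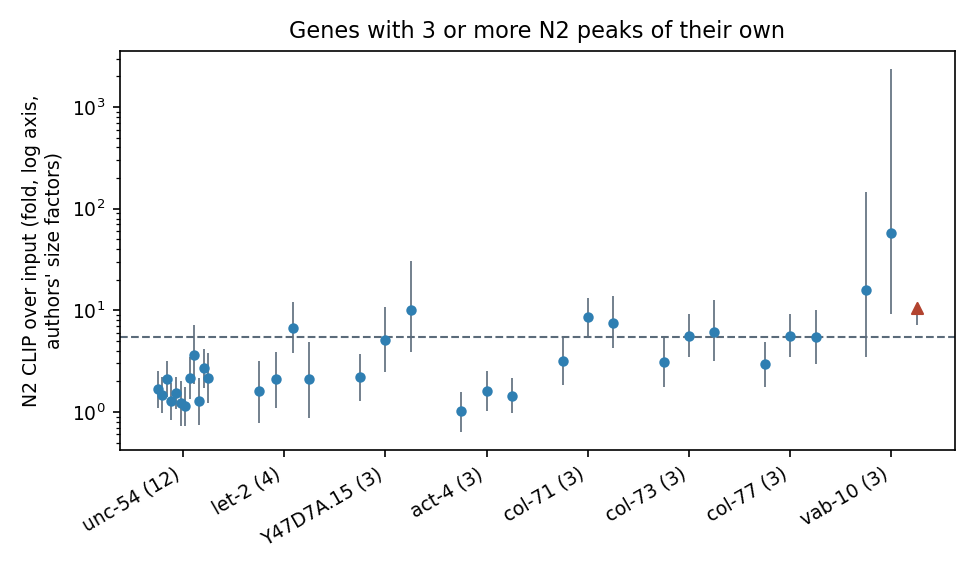
N2 CLIP over input (vertical, fold by the authors' size factors, log axis) of every own peak in the 8 genes with 3 or more, from left to right in the order of their position on the chromosome, with 95% intervals for counting error; the dashed line is the median of all peaks (5.43), and the red triangle is a lower bound at 0 input reads. The 12 peaks of unc-54 lie between 1.15 and 3.66, and all 3 peaks of vab-10 lie above 10.

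Most N2 peaks also appear in the MSTR-1 list, and those that do not were shallow in the input. Of the 310 peaks 83 (26.8%) had no MSTR-1 peak that shares a base on the same strand, and the count was also 83 on either strand. These 83 peaks had a median of 15 N2 CLIP reads, against 26 for the other 227, and a median of 2 input reads, against 27. Their median fold, with lower bounds counted as values, was 15.8, against 3.38. Of the 83, 77 reached 4-fold (92.8%), against 100 of the 227 (44.1%) and 57.1% of all peaks. At most 2 input reads were found in 49 of the 83. With 7 or fewer input reads 4-fold is reached by arithmetic, so the count of 77 follows in part from the low input. The 83 peaks held 1397 N2 CLIP reads and 330 input reads in all. Of the 29 peaks without an input read 25 were among them. They were shorter, with a median length of 104 nt against 127 nt.

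**Figure D5:**
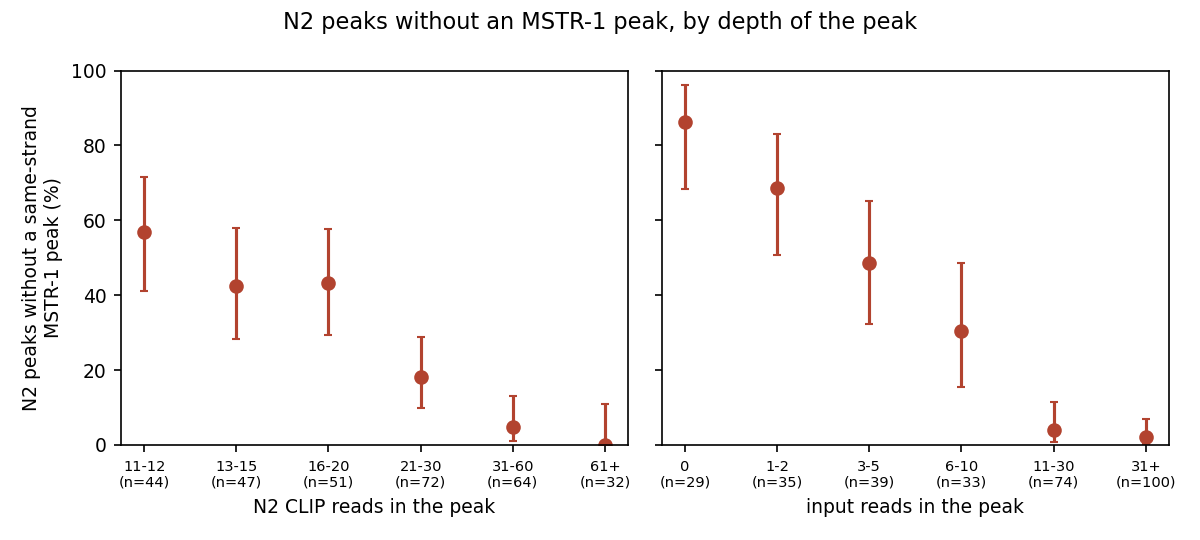
Share of N2 peaks without a same-strand MSTR-1 peak (vertical, percent) by the number of N2 CLIP reads in the peak (left panel) and of input reads (right panel), with the number of peaks under each class. Bars are exact 95% binomial intervals over the peaks of a class, not over reads. They treat peaks as independent, although some lie in the same gene. The share is 56.8% at 11 to 12 N2 CLIP reads and 0% over 60, and 86.2% at 0 input reads against 2% over 30.

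The share without an MSTR-1 peak was 56.8% among 44 peaks with 11 or 12 N2 CLIP reads, 18.1% among 72 with 21 to 30, and 0 of 32 above 60. By input reads it was 86.2% of 29 peaks with none, 48.7% of 39 with 3 to 5 and 2% of 100 with more than 30. At shared peaks the MSTR-1 libraries had more reads, with medians of 3.38 and 4.96 reads per N2 CLIP read in the overlapping peak. Library depths were not compared. The N2 CLIP reads outnumbered those of both MSTR-1 libraries at 7 of the 227 shared peaks, among them ZK180.6, with 30 N2 CLIP reads against 7 and 15 MSTR-1 reads, and T23E7.2, chosen after its values were seen, with 32 against 20 and 12. Shared peaks can differ in extent, and at ZK180.6 the MSTR-1 peak covered less than 50% of the N2 peak. Reads of the MSTR-1 libraries where they have no listed peak were not analysed here.

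The gene lists were spread unevenly over these 83 peaks, with no test of the difference. The 83 include 73 own peaks of 71 protein-coding genes, and 19 of the 83 overlap a listed gene, against 129 of the 227 shared peaks. Ribosomal proteins had 0 of 19 peaks in this set, energy metabolism 0 of 12, histones 0 of 4, and muscle 3 of 32 when any overlap with a member counts. Collagens had 3 of 46 and intestinal genes 4 of 6. All of these shares can be read against the 26.8% of all peaks, and the same lists differ in input reads as given above. The protein-coding genes under own peaks in the set were longer, from annotated start to end. Counted once per peak, their median was 3562 nt, against 1231 nt for shared peaks. Chromosome X held 13 of the 83 (15.7%) and 44 of the 227 (19.4%). Of all N2 peaks outside the rRNA genes and their spacers 19.6% lay on it, against 13.3% of MSTR-1 peaks and 13.7% of protein-coding genes.

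Ranked by the lower end of the interval, the highest genes by own peaks in this set had no input read. Peaks with 1 to 3 input reads had folds of up to 57.3, in vab-10 (9.16 to 2374), with wide intervals. Those folds use the input reads found, so they cannot be ranked against the lower bounds at 0 input reads. A peak of hrg-11.3 (chromosome X, 11494355 to 11494418) had 28 N2 CLIP reads against 0 (at least 26.7-fold), snx-14, of a sorting nexin, had 26 (at least 24.8-fold), ptr-21, related to the receptor patched, had 22 (at least 21-fold) and pqn-74 had 21 (at least 20.05-fold). Next came clec-180 and dpy-8, given above, and the pseudogene F09E5.10, the transcription factor gene egl-44, the spectrin gene sma-1 and mlt-11, each with 18 reads against 0, and the kinase gene max-2, with 16. A peak over both cut-5, a cuticlin gene, and idpa-3 had 30 reads against 0 and lay 4 nt from an MSTR-1 peak. The peak with most reads in the set was over eel-1, with 51 N2 CLIP reads and 6 input reads (24.3-fold, interval 10.4 to 69.4), and grsp-2 had 2 peaks, with 21 against 2 in its own and 40 against 3 in one it shares with T28C6.10. The peak of vig-1 (37 against 60) stood at 1.77-fold. The genes from cut-5 onward were chosen after their values were seen.

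Of the 83 peaks 27 lay over a gene that has an MSTR-1 peak elsewhere, as in vab-10, eel-1 and hrg-11.3, and 56 lay over no such gene, as in pat-2, snx-14 and dpy-8. Of the 83, 8 lay within 200 nt of a same-strand MSTR-1 peak and 20 within 1000 nt.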

How the data were processed

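The authors deposited 2 peak tables, for N2 CLIP and for MSTR-1 CLIP. Of tools, the submitters' processing notes list STAR, cutadapt, deepTools and UMI-tools without versions; peak caller, thresholds, genome build, annotation and strand setting have no source here. The deposited library columns hold a signal, the reads of a peak divided by 1 size factor per library, 0.591 for N2 CLIP and 1.69 for the input. All values divided by their library's step came out whole to within 0.02 of a read, which gave back the reads. Totals are sums over listed peaks, not library depths. The deposited fold, a ratio of N2 CLIP over input, was recomputed from them. The columns do not name their library. The CLIP column of the N2 table was read as N2 CLIP and its control column as the only input.

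Peaks were matched to WBcel235 genes on either strand, without 15363 piRNA genes. The build of the peaks is not stated, and the gene table gives no strand. Intervals and shares were computed with Python 3.11.15 and scipy 1.17.1, and interval coverage was tested on simulated reads. Medians on the log2 scale in the closing section use log2(scaled reads + 1).

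The peaks and gene lists were chosen with earlier results of these data known. Named genes followed a rule over own peaks. It took the 15 with the highest lower interval bound, the 10 outside rRNA with most N2 CLIP reads, the 6 with most peaks, the 12 with the highest bound without an MSTR-1 peak, up to 4 per list by reads, all rRNA genes and mstr-1.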

Additional observations from a re-analysis of the deposited data

How the results depend on the processing

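No paired analysis was possible because N2 CLIP and the input are 1 library each. Naming genes by strand was not run, since the gene table carries no strand. The median log2 N2 CLIP over input of all 310 peaks was 2.31 (pseudocount of 1). It turned to -0.67 with column totals, and was 1.54 with column totals outside rRNA, 1.90 at peaks with at least 20 N2 CLIP reads and 1.62 at peaks with an MSTR-1 peak (an alternative chosen after seeing the data). Peaks at 4-fold or more, 177 of 310, numbered 19 of 310 with column totals. They numbered 130 with totals outside rRNA, 121 at 8-fold and 177 with a bound of 1 read. Without the 29 peaks that have no input read, 148 were left (chosen after seeing the data). The limit of at least 20 N2 CLIP reads kept 179 of the 310 peaks, and 88 of these 179 were at 4-fold or more. Among the same 179 peaks, 21 had no MSTR-1 peak, in place of 83 of 310. They gave 115 genes with an own peak, in place of 216. Asking for 50% of the N2 peak to be shared gave 100 in place of 83. The rRNA share of N2 CLIP reads was 87.4% without the pseudogene rrn-3.56 (chosen after seeing the data). The collagen share of 8.95% was 11.3% over any overlapping peak and 16.2% without tRNA peaks (chosen after seeing the data). With 934439 reads of which 98.5% are rRNA, most other peaks rest on few reads, which limits every single-gene fold.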
